A study of Mus musculus with 42 samples.

Results

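The GW182 family in the mouse consists of 3 genes, Tnrc6a, Tnrc6b and Tnrc6c, and their mRNAs were followed here through every library of an RNA immunoprecipitation study in which the Tnrc6a protein carried the tag. The members were the rows named Tnrc6a (ENSMUSG00000052707), Tnrc6b (ENSMUSG00000047888) and Tnrc6c (ENSMUSG00000025571), that is 3 of 18825 genes in the table of experiment 1 and 3 of 19866 in that of experiment 2. All 3 passed the filter on low counts in both tables. All cells were mouse embryonic stem cells of the 129S6/SvEvTac background with a GFP reporter named GFP_5xT71BS and a stably transfected FLAG-Cas9::T2A::Blasticidin construct. The treatment labels also hold the term yGlob. The untagged cells carried no tag. The tagged cells carried HA-AVI-Tnrc6a, and the cells labelled Trim71KO (HA-AVI-Tnrc6a, Trim71-/-) and Ago2KO (HA-AVI-Tnrc6a, Ago2-/-) carried the same tag. RNA was sequenced from the lysate (input) and from the anti-HA beads (IP) of each genotype, with 3 libraries per group. Experiment 1 held untagged, tagged and Trim71KO cells in 18 libraries, and experiment 2 added Ago2KO cells for 24 libraries. Whether a knockout line is a single clone is not given in the sources used here.

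GW182 proteins act in microRNA silencing. An Argonaute protein, guided by a microRNA, binds the target mRNA and recruits a GW182 protein, which in turn brings the PAN2-PAN3 and CCR4-NOT deadenylases and so lowers translation and shortens the life of the mRNA. The 3 paralogs share glycine-tryptophan repeats that bind Argonaute and a C-terminal silencing region, and they are thought to act partly in each other's place. The mRNAs of these genes are themselves RNAs that the proteins could be bound to. The libraries allow their presence on the anti-HA beads to be read beside their level in the cell.

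Per RefSeq on GRCm38.p6, all 3 genes lie on the forward strand. Tnrc6a spans bases 123031101 to 123195296 of chromosome 7, Tnrc6b spans 80711313 to 80941086 of chromosome 15, and Tnrc6c spans 117653703 to 117763439 of chromosome 11. The deposited gene lengths are 12706 bases for Tnrc6a, 23677 for Tnrc6b and 12843 for Tnrc6c. The microRNA gene Mir5113 (chromosome 15, 80940039 to 80940120) lies inside the span of Tnrc6b on this annotation and has a row of its own in both tables. Its mature product is shown because counts on that row rose on the beads beside those of its host gene, as described further on. It occupies chr15:80940049-80940071 on the forward strand, and capitals mark its seed, bases 2 to 8.
mmu-miR-5113: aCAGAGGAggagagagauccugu

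The libraries of experiment 1 held 12587257 to 23657840 counts each, those of experiment 2 16296447 to 21026552. The study's design text describes triplicate dishes, so p-values measure the spread between dishes of a line. Ago2 RNA in input was 353 ± 34.9 CPM (counts scaled to the TMM-adjusted library size, SD, n = 3) in tagged and 162 ± 4.76 in Ago2KO cells. Trim71 RNA in the inputs with the label Trim71KO did not fall (241 ± 21.2 CPM in tagged and 282 ± 3.18 in Trim71KO cells for experiment 1, 282 ± 23.5 and 377 ± 9.61 for experiment 2), so the RNA level does not check that label. All 8 of 8 embryonic stem cell markers were present, with a summed input level between 5952 and 8120.3 CPM over all input libraries. The tagged input library numbered 2 of experiment 1 held the lowest level of each of the 3 members among the inputs of that experiment, and results that rest on it are given with and without it.

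All 3 mRNAs were detected in every input library. In experiment 1 Tnrc6a stood at 105, 97.4 and 104 CPM in the untagged inputs, at 95.1, 57.1 and 81.9 CPM in the tagged inputs and at 106, 112 and 108 CPM in the Trim71KO inputs. In experiment 2 it stood at 98.2, 98.7 and 89.7 CPM in untagged, 93.8, 83.1 and 86.7 in tagged, 110.3, 114 and 117 in Trim71KO and 113, 119 and 116 in Ago2KO inputs. In both experiments the Trim71KO inputs were above every tagged input, and the tagged group was the lowest in the order of group means, although its libraries overlapped those of untagged cells in experiment 2.

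Tnrc6b was the least abundant member in input. Its levels in experiment 1 were 54.5, 52.6 and 51.5 CPM in untagged, 51.8, 32.3 and 42.8 in tagged and 59.8, 67.0 and 66.1 in Trim71KO inputs. In experiment 2 they were 64.0, 69.1 and 64.4 CPM in untagged, 64.5, 58.0 and 59.6 in tagged, 62.4, 68.6 and 82.6 in Trim71KO and 74.1, 76.3 and 76.7 in Ago2KO inputs. The Ago2KO inputs lay above all tagged inputs, whereas the Trim71KO inputs of experiment 2 overlapped every neighbouring group in the order.

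Tnrc6c had the smallest range of group means relative to its level. It stood at 112, 122 and 123 CPM in untagged, 104, 74.0 and 97.3 in tagged and 101, 101 and 109 in Trim71KO inputs of experiment 1. In experiment 2 it stood at 97.0, 97.2 and 96.2 CPM in untagged, 94.8, 88.6 and 94.1 in tagged, 93.8, 91.6 and 98.4 in Trim71KO and 101, 106 and 105 in Ago2KO inputs. The Ago2KO group was the highest of experiment 2 and did not overlap the next group, the untagged inputs.

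Levels of different genes were set side by side only per length, as RPKM, which is CPM divided by the deposited gene length. In the untagged inputs of experiment 1 Tnrc6a stood at 8.02 ± 0.312, Tnrc6b at 2.23 ± 0.064 and Tnrc6c at 9.24 ± 0.485 RPKM (SD, n = 3). As shares of the summed length-scaled level of the family, Tnrc6a held 41.1% ± 1.66, Tnrc6b 11.5% ± 0.514 and Tnrc6c 47.4% ± 1.99 in those libraries. In the untagged inputs of experiment 2 the shares were 42.1% ± 1.11, 15.6% ± 0.499 and 42.3% ± 0.994. Tnrc6c therefore exceeded Tnrc6a in each untagged input of experiment 1, while in experiment 2 the shares of Tnrc6a and Tnrc6c overlapped.

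The knockout lines divided the family RNA differently from tagged cells. In the inputs of experiment 1 Tnrc6c made up 47.6% ± 2.04 of the family RNA in tagged cells but 41.7% ± 1.33 in Trim71KO cells. The second experiment gave 43.2% ± 0.894 for tagged, 38.2% ± 0.942 for Trim71KO and 39.6% ± 0.224 for Ago2KO cells. Tnrc6a made up 40.5% ± 1.75 in tagged cells and 44.2% ± 1.14 in Trim71KO cells of the first experiment. Its part in the second was 41.5% ± 0.673 for tagged, 46.3% ± 1.06 for Trim71KO and 44.8% ± 0.326 for Ago2KO cells. The knockout groups did not overlap the tagged group in either share in either experiment, with Tnrc6c the smaller and Tnrc6a the larger part of the family in the knockouts. The shares of a library sum to its whole, so the parts of Tnrc6a and Tnrc6c are not separate observations. How often other genes separate in this way was not counted. These shares are descriptions, with no test.

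**Figure D1:**
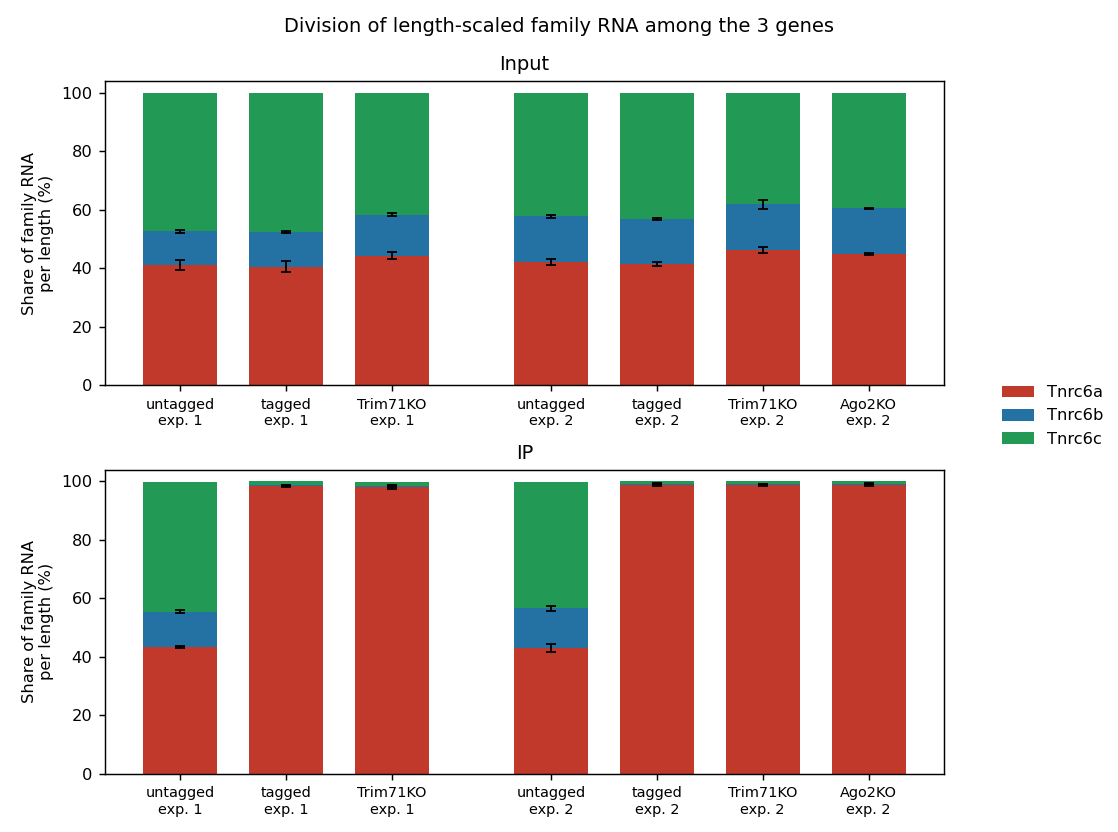
Division of the length-scaled RNA of the 3 genes in input (top) and IP (bottom), as the mean share in percent of 3 libraries per genotype and experiment; error bars are the SD of the Tnrc6a share (lower boundary) and of the Tnrc6b share (upper boundary). In input and untagged IP the 3 genes share the total, with Tnrc6b the smallest part, whereas in the IP of the tagged lines Tnrc6a holds 97.2% to 99.2% in each library.

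On the beads Tnrc6a mRNA dominated wherever its protein carried the tag. In tagged IP libraries it stood at 19736, 19643 and 29473 CPM in experiment 1 and at 24216, 17194 and 12945 CPM in experiment 2, against 89.6, 94.0 and 93.7 and 90.4, 82.7 and 74.2 CPM in the untagged IP libraries. In Trim71KO IP libraries it stood at 13373, 17593 and 21758 CPM in experiment 1 and 21905, 17790.2 and 13725 in experiment 2, and in Ago2KO IP libraries at 31194, 17218 and 14785 CPM. Reads of this single gene made up between 1.22% and 2.83% of all counts in the IP libraries of tagged lines, and 0.00734% to 0.00899% in those of untagged cells. Libraries of a tagged genotype differed widely among themselves. In experiment 2 the IP library numbered 1 was the highest and that numbered 3 the lowest in each of the 3 tagged genotypes.

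Both paralogs, whose proteins carry no tag, also had higher levels in the IP of tagged cells than in that of untagged cells. Tnrc6b stood at 213, 254 and 297 CPM in tagged and 48.7, 46.7 and 47.3 CPM in untagged IP libraries of experiment 1. In experiment 2 it stood at 188, 145 and 148 CPM in tagged and 55.5, 49.9 and 41.5 CPM in untagged IP libraries. Tnrc6c stood at 242, 252 and 298 CPM in tagged and 93.1, 96.2 and 98.2 in untagged IP libraries of experiment 1, and at 164, 140 and 126 against 84.6, 89.6 and 77.8 in experiment 2. The tagged and untagged IP groups did not overlap for any member in either experiment. The share of all genes without such overlap was not counted. All 3 IP levels were called higher in edgeR, where 32.4% and 24.8% of genes were.

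**Figure D2:**
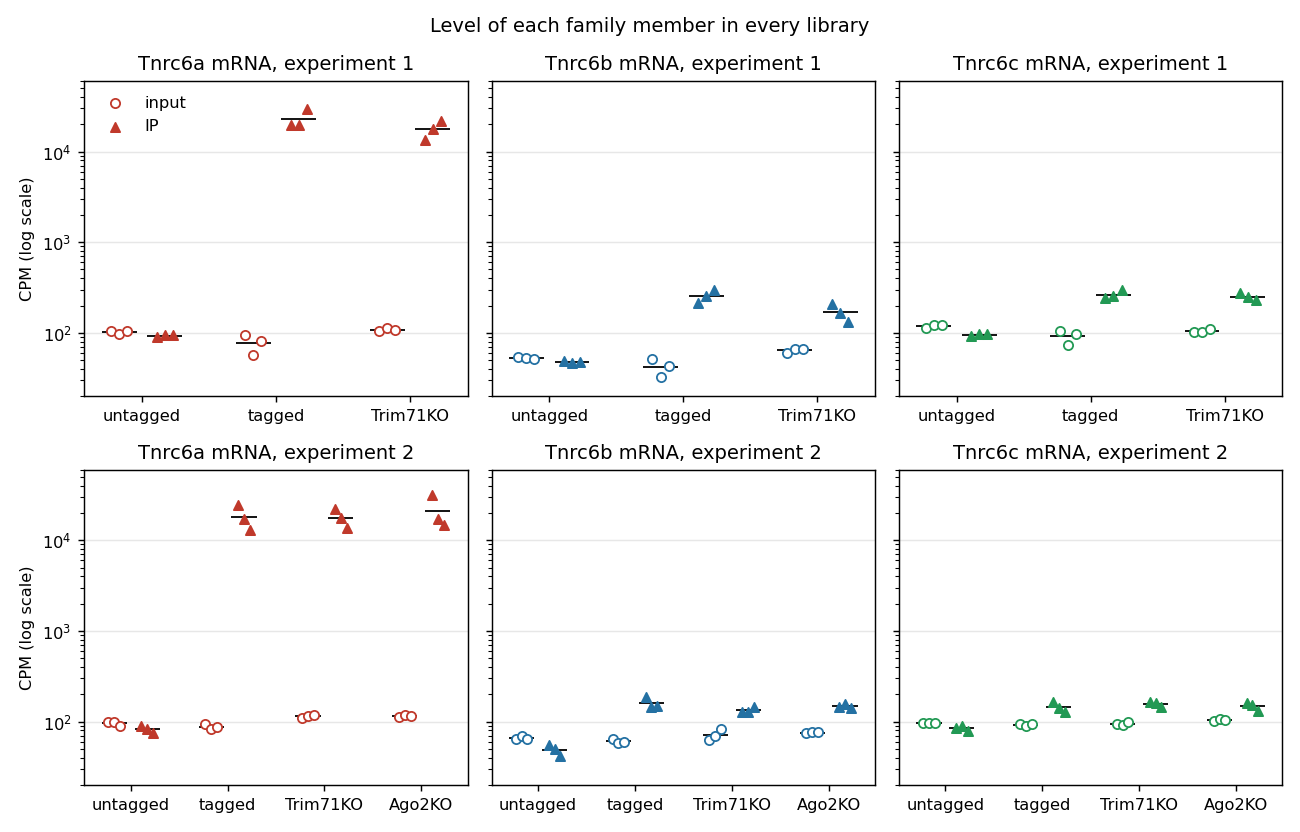
Level of each member in every library, in CPM on a log scale, for input (open circles) and IP (filled triangles) of each genotype; the 3 points are the replicates and the bar is their mean. In the IP of the lines with tagged Tnrc6a the Tnrc6a mRNA reaches 12945 to 31194 CPM, and Tnrc6b and Tnrc6c lie above their input at 126 to 298 CPM, while in untagged cells IP and input lie close together.

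The log2 of IP over input was then tested within each genotype with edgeR's quasi-likelihood test, with Benjamini-Hochberg adjustment over all genes of the table and a gene called at an adjusted p under 0.05. In untagged cells 0 of 3 members were called in either experiment, where 12.1% and 0.728% of genes were called. The ratios there lay between -0.43 (Tnrc6b, experiment 2, SE 0.10, adjusted p 0.0503) and -0.14 (Tnrc6a, experiment 1, SE 0.17, adjusted p 0.668). At an unadjusted p under 0.05 there were 1 and 2 members, all with less on the beads than in the lysate, and DESeq2 called 0 and 1 (Tnrc6b, -0.42, adjusted p 0.0115). DESeq2 called 273 genes in experiment 2, against 144 in edgeR. The calls of the members depended on the scaling. With library size alone the median over all genes was -0.42 in place of -0.03 in experiment 1, and all 3 members were called lower on the beads, at -0.53 for Tnrc6a (adjusted p 0.0124), -0.55 for Tnrc6b (adjusted p 0.00402) and -0.70 for Tnrc6c (adjusted p 2.73e-05). That fit called 10201 genes in either direction, against 2273 with TMM. In experiment 2 the median with library size alone was -0.09 in place of -0.01, with Tnrc6b at -0.51 (adjusted p 0.00393) and Tnrc6c at -0.29 (adjusted p 0.0388) called. There 574 genes were called, against 144 with TMM. With only untagged libraries in the fit, Tnrc6c of experiment 1 (-0.29, adjusted p 0.000533) and Tnrc6b of experiment 2 (-0.42, adjusted p 0.0496) were called, and Tnrc6b of experiment 2 also without the untagged IP numbered 1 (-0.52, adjusted p 0.0294). These fits called 4612, 139 and 84 genes. In tagged cells all 3 members were called higher in both experiments, where 32.4% and 23.2% of genes were. Tnrc6a was 294-fold and 206-fold higher on the beads, Tnrc6b 6.02-fold and 2.64-fold, and Tnrc6c 2.88-fold and 1.55-fold. All 3 were also called higher on the beads in Trim71KO cells (30.0% and 26.9% of genes) and in Ago2KO cells (19.7% of genes), and the smallest of these ratios was the 1.43-fold of Tnrc6c in Ago2KO cells.

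Tag-specific enrichment is the log2 of IP over input for tagged minus that for untagged cells. It shows which RNAs came with the tag beyond the background of the beads. How an RNA came to be there was not tested. This holds also for Tnrc6a, whose own mRNA encodes the tagged protein. All 3 members were called higher in both experiments, against 28.1% of genes called higher in experiment 1 and 18.9% in experiment 2. For Tnrc6a it was 8.34 (SE 0.28, adjusted p 3.07e-17) in experiment 1 and 7.90 (SE 0.31, adjusted p 1.03e-15) in experiment 2, and only 2 of 18772 and 1 of 19778 genes had larger values. Tnrc6b had an enrichment of 2.74 (SE 0.21, adjusted p 8.08e-11), a 6.70-fold change, and of 1.83 (SE 0.15, adjusted p 1.02e-10), a 3.55-fold change. Tnrc6c had an enrichment of 1.83 (SE 0.15, adjusted p 3.85e-10), a 3.57-fold change, and of 0.83 (SE 0.12, adjusted p 1.84e-06), a 1.78-fold change. Tnrc6b thus ranked among the upper 5.02% and 4.18% of genes tested and Tnrc6c among the upper 10.8% and 13.7%. The median over all genes was -0.10 and -0.03.

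In both experiments the order was Tnrc6a, Tnrc6b, Tnrc6c, and the 95% confidence intervals of neighbours in that order did not overlap. The intervals of experiment 1 were 7.77 to 8.91 for Tnrc6a, 2.31 to 3.18 for Tnrc6b and 1.52 to 2.15 for Tnrc6c. The intervals of experiment 2 were 7.26 to 8.54, 1.53 to 2.13 and 0.60 to 1.07. The difference between members was not itself tested.

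The paralogs were more enriched in experiment 1 than in experiment 2. In a joint edgeR fit over all 42 libraries and the 18620 genes tested in it, the tag-specific enrichment of Tnrc6b was higher in experiment 1 by 1.02 on the log2 scale (SE 0.27, adjusted p 0.00416) and that of Tnrc6c by 1.10 (SE 0.20, adjusted p 9.31e-05). For Tnrc6a the difference of 0.54 (SE 0.41) was not called (adjusted p 0.343). In this comparison 28.5% of all genes were called. The labels give the experiment and no other difference between these cultures, so what sets the experiments apart cannot be told apart from their number.

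In Trim71KO cells the enrichment of Tnrc6b was lower than in tagged cells. In experiment 1, 2 of 3 members were called and both were lower, where 3.47% of genes were called lower. Tnrc6b differed by -1.20 (SE 0.21, adjusted p 0.000678, 95% interval -1.63 to -0.77), a fold of 0.435, and remained called under each alternative setting and without each library in turn (-1.31 to -0.96). Its IP libraries read 207, 167 and 132 CPM against 213, 254 and 297 in tagged cells, and its input libraries 59.8, 67.0 and 66.1 against 51.8, 32.3 and 42.8. Neither pair of groups overlapped, so the ratio moved on both sides. The IP level differed by -0.59 (SE 0.14, adjusted p 0.00229), where 21.1% of genes were called lower on the beads, and the input level by 0.61 (SE 0.15, adjusted p 0.00301).

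Tnrc6a differed by -0.86 in the same comparison (SE 0.24, adjusted p 0.0476), close to the threshold. The call ended with RLE size factors (adjusted p 0.0514), with library size alone (adjusted p 0.102) and with only the compared groups in the fit (adjusted p 0.137). It also ended without the tagged input numbered 2 (-0.62, adjusted p 0.144) or 3 (-0.82), without any 1 of the Trim71KO inputs (-0.81, -0.77 and -0.79), without the tagged IP numbered 3 (-0.64, adjusted p 0.196) and without the Trim71KO IP numbered 1 (-0.64) or 2 (-0.79). The IP levels of Tnrc6a overlapped between the genotypes and differed by -0.39 (SE 0.17, adjusted p 0.0829). That IP value was called without the tagged IP numbered 2 (-0.48, adjusted p 0.0494) or the Trim71KO IP numbered 3 (-0.49, adjusted p 0.0231), and it was -0.16 without the tagged IP numbered 3. Tnrc6c did not pass the test, at -0.25 (SE 0.15, adjusted p 0.482, 95% interval -0.56 to 0.07).

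In experiment 2 none of the 3 members was called in this comparison, where 1.49% of genes were called. At an unadjusted p under 0.05 there was 1 member, and DESeq2 called 1, in each case Tnrc6b. Tnrc6b was lower by point estimate, at -0.51 (SE 0.14, adjusted p 0.0732, unadjusted p 0.0015, 95% interval -0.80 to -0.21). It was called by DESeq2 (-0.52, adjusted p 0.0227), and in edgeR without the tagged IP numbered 3 (-0.60, adjusted p 0.0442) or the Trim71KO IP numbered 3 (-0.62, adjusted p 0.0453). Over all genes DESeq2 called 541 and these edgeR fits 252 and 167, against 295 in edgeR with all libraries. The IP level of Tnrc6b alone was called lower, by -0.28 (SE 0.10, adjusted p 0.0333), with 127, 126 and 145 CPM in Trim71KO and 188, 145 and 148 in tagged libraries, where 16.2% of genes were called lower. That call ended without the tagged IP numbered 1 (-0.15, adjusted p 0.24), without the Trim71KO IP numbered 1 (-0.25) or 2 (-0.26), and with only the compared groups in the fit (adjusted p 0.0713). Tnrc6a stood at -0.40 (SE 0.28, adjusted p 0.542, 95% interval -0.97 to 0.17) and Tnrc6c at 0.09 (SE 0.11, adjusted p 0.798, 95% interval -0.15 to 0.32).

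The joint fit did not call a difference between the experiments in these Trim71KO values, where 0.0967% of genes were called. The value of experiment 1 minus that of experiment 2 was -0.70 for Tnrc6b (SE 0.26, adjusted p 0.214, unadjusted p 0.0116). It was -0.48 for Tnrc6a (SE 0.41, adjusted p 0.602) and -0.34 for Tnrc6c (SE 0.20, adjusted p 0.418). The enrichment that remained in Trim71KO cells is seen in the ratio of IP to input, where Tnrc6b was still 2.62-fold and 1.86-fold and Tnrc6c 2.43-fold and 1.64-fold higher on the beads. Tnrc6a was 162-fold and 157-fold higher.

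In Ago2KO cells, labelled as lacking a main Argonaute partner of GW182 proteins, edgeR called none of the 3 members against tagged cells, while 4.16% of genes were called. At an unadjusted p under 0.05 there was 1 member, and DESeq2 called 1, in each case Tnrc6b. The comparison uses the same tagged libraries as the Trim71KO comparison of experiment 2. Tnrc6b had the largest difference, -0.45 (SE 0.14, adjusted p 0.0854, unadjusted p 0.00432, 95% interval -0.74 to -0.15). It was called by DESeq2 (-0.46, adjusted p 0.0401), and in edgeR without the tagged IP numbered 3 (-0.53, adjusted p 0.0281). Over all genes DESeq2 called 980 and that edgeR fit 1224, against 822 in edgeR with all libraries. The IP levels of Tnrc6b overlapped, with 145, 155 and 141 CPM in Ago2KO and 188, 145 and 148 CPM in tagged libraries, and its input levels did not. Tnrc6a stood at -0.19 (SE 0.28, adjusted p 0.869, 95% interval -0.76 to 0.38) and Tnrc6c at -0.12 (SE 0.11, adjusted p 0.777, 95% interval -0.35 to 0.12). Tnrc6c IP libraries read 162, 153 and 130.2 CPM in Ago2KO cells and 163, 159 and 144 CPM in Trim71KO cells, and these groups overlapped each other and the tagged group.

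Set directly against each other, the Trim71KO and Ago2KO lines gave 0 of 3 called members, where 11.8% of genes were called, and neither an unadjusted p under 0.05 nor DESeq2 gave any. The enrichment in Trim71KO minus that in Ago2KO cells was -0.21 for Tnrc6a (95% interval -0.78 to 0.36, adjusted p 0.717), -0.06 for Tnrc6b (-0.35 to 0.23, adjusted p 0.855) and 0.20 for Tnrc6c (-0.04 to 0.44, adjusted p 0.303). The intervals leave room for a difference of either sign in each member.

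**Figure D3:**
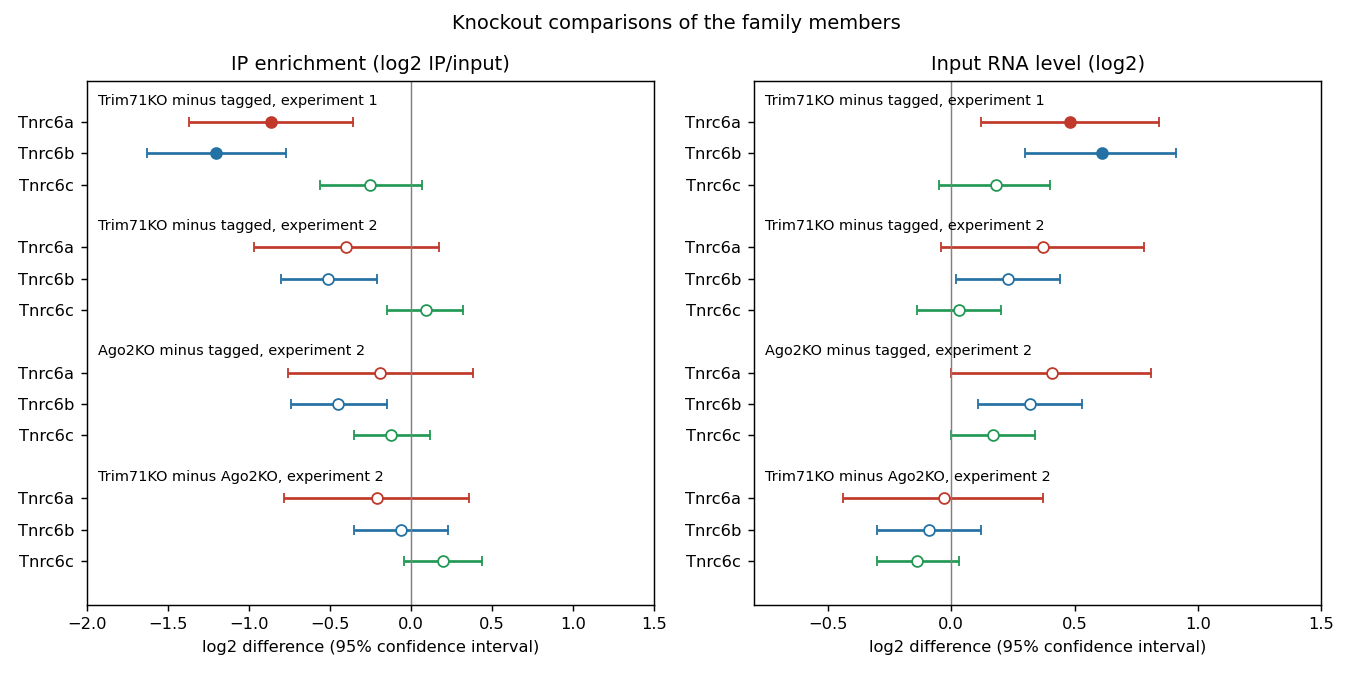
Differences between genotypes for each member on the log2 scale, with 95% confidence intervals from edgeR, for IP enrichment (left) and input level (right); filled points were called at an adjusted p under 0.05. Tnrc6b enrichment lies below 0 in both Trim71KO comparisons (-1.20 and -0.51) and in the Ago2KO comparison (-0.45), and only the first of these is called, while Tnrc6c lies near 0.

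Input levels tested on their own were called for Tnrc6a and Tnrc6b in Trim71KO against tagged cells of experiment 1. Both rose, where 16.5% of genes were called higher. Tnrc6a differed by 0.48 (SE 0.17, adjusted p 0.038) and Tnrc6b by 0.61 (SE 0.15, adjusted p 0.00301), while Tnrc6c stood at 0.18 (SE 0.11, adjusted p 0.219). The Tnrc6a call ended without the tagged input numbered 2 (0.30, adjusted p 0.181) or 3 (0.50, adjusted p 0.0557) and without any 1 of the Trim71KO inputs (0.49, 0.45 and 0.47). The Tnrc6b value was 0.45 without the tagged input numbered 2 and stayed called. In experiment 2 the same comparison called none of the 3 in edgeR, where 27.2% of genes were called. There 1 member had an unadjusted p under 0.05 and DESeq2 called 0. The values were 0.37 for Tnrc6a (SE 0.20, adjusted p 0.177), 0.23 for Tnrc6b (SE 0.10, adjusted p 0.0983) and 0.03 for Tnrc6c (SE 0.08, adjusted p 0.81). With only the compared groups in the fit, Tnrc6a (adjusted p 0.000176) and Tnrc6b (adjusted p 0.0462) were called in experiment 2, and Tnrc6b was called without the Trim71KO input numbered 1 (0.32, adjusted p 0.0391). Over all genes these fits called 5775 and 4564, against 5383 with all libraries in the fit.

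Ago2KO inputs lay above tagged inputs without overlap for each of the 3 members. The share of all genes separated in this way was not counted. In edgeR none of the 3 was called, where 6.96% of genes were called. An unadjusted p under 0.05 was reached by 2 of the 3. The difference was 0.41 for Tnrc6a (SE 0.20, adjusted p 0.261), 0.32 for Tnrc6b (SE 0.10, adjusted p 0.0583) and 0.17 for Tnrc6c (SE 0.08, adjusted p 0.251). With only these groups in the fit all 3 were called, with adjusted p of 2.5e-05, 0.000611 and 0.041, and DESeq2 called Tnrc6b (adjusted p 0.046). Over all genes, the restricted fit called 2481 and DESeq2 1536, against 1376 in edgeR with all groups in the fit. Between the knockouts, inputs differed by -0.03, -0.09 and -0.14 for Tnrc6a, Tnrc6b and Tnrc6c, and neither edgeR nor DESeq2 called any, nor did any have an unadjusted p under 0.05, where 28.4% of genes were called.

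The input level of Tnrc6a in tagged cells did not pass the test against untagged cells. The difference was -0.39 (SE 0.17, adjusted p 0.155) in experiment 1 and -0.12 (SE 0.20, adjusted p 0.89) in experiment 2. In experiment 1 Tnrc6c alone was called, by -0.37 (SE 0.11, adjusted p 0.0296), where 10.6% of genes were called, and Tnrc6b stood at -0.32 (SE 0.15, adjusted p 0.161). Without the tagged input numbered 2 the values were -0.20 for Tnrc6a (adjusted p 0.566), -0.16 for Tnrc6b (adjusted p 0.631) and -0.23 for Tnrc6c (adjusted p 0.215). The Tnrc6c call ended too without the tagged input numbered 3 (-0.39), without any 1 of the untagged inputs (-0.39, -0.33 and -0.33) and with only these groups in the fit (adjusted p 0.0596). Without the tagged input numbered 1, Tnrc6a (-0.52, adjusted p 0.0465) and Tnrc6b (-0.46, adjusted p 0.045) were called as well. That fit called 3053 of all genes, against 1983 with all libraries. In experiment 2 neither edgeR nor DESeq2 called any, and none had an unadjusted p under 0.05, where 1.39% of genes were called. The values lay between -0.12 and -0.07.

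Markers of other cell types moved with some of these input comparisons. The summed level of 6 primitive endoderm markers was 45.4 to 58.7 CPM in tagged and 9.69 to 11.5 CPM in Trim71KO inputs of experiment 1, where 2 of the 6 were under 1 CPM in all libraries. In experiment 2 it was 15.9 to 16.6 CPM in tagged, 6.44 to 7.81 in Trim71KO and 7.65 to 8.81 in Ago2KO inputs, with 3 of the 6 under 1 CPM in each knockout. Of 4 fibroblast markers 2 had a row, and their sum was 22.6 to 24.5 CPM in tagged and 58.0 to 61.8 in Trim71KO inputs of experiment 1, and 34.2 to 35.8 against 49.5 to 51.9 in experiment 2. The summed level of the 8 stem cell markers was 6197 to 6707 CPM in tagged and 7165 to 7338 in Trim71KO inputs of experiment 1. Experiment 2 gave 6902 to 7111 CPM in tagged, 7886 to 8120.3 in Trim71KO and 7880.3 to 7948 in Ago2KO inputs. The 4 neural markers summed to 81.1 to 89.5 CPM in tagged and 98.6 to 109 in Ago2KO inputs, with 1 of the 4 under 1 CPM in both, and overlapped between Trim71KO and tagged inputs in both experiments. Of 4 trophoblast markers 1 had a row, at 75.7 to 85.2 CPM in tagged and 114 to 129.8 in Ago2KO inputs. In Trim71KO inputs that row stood at 44.8 to 50.4 CPM against 39.3 to 43.4 in experiment 1 and at 57.5 to 62.4 against 75.7 to 85.2 in experiment 2. The 4 mesoderm markers summed to 1.55 to 2.13 CPM in tagged and 2.44 to 3.73 in Ago2KO inputs. Of these, 4 were under 1 CPM in all tagged inputs and 2 in all Ago2KO inputs. The sums of the endoderm, stem cell, neural and mesoderm lists and the 1 trophoblast row thus did not overlap between Ago2KO and tagged inputs. The fibroblast sum (29.9 to 35.1 CPM in Ago2KO) did overlap. A list with 1 row, or with most rows under 1 CPM, says little about a cell type. The part of these cells in the input differences of the family was not tested, and fewer cells of a type cannot be told apart from less RNA per cell in such bulk samples.

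The mRNAs of proteins that work with GW182 were read on the same scale. Of 19 partner genes (Argonautes, cytoplasmic poly(A)-binding proteins, PAN2-PAN3, CCR4-NOT and the helicase Ddx6), 10 had a higher and 4 a lower tag-specific enrichment in experiment 1. Of all genes 28.1% were called higher and 28.8% lower there. The median of the list was 0.41 against -0.10 over all genes. In experiment 2 the counts were 9 and 4, where 18.9% of all genes were called higher and 8.77% lower, with a median of 0.20 against -0.03. The CCR4-type deadenylase mRNAs led, with Cnot6l at 4.31 (SE 0.18, adjusted p 1.75e-15) and 2.74 (SE 0.16, adjusted p 2.42e-13) and Cnot6 at 4.20 (SE 0.15, adjusted p 1.35e-16) and 3.09 (SE 0.16, adjusted p 2.76e-14). Those of Cnot10, a CCR4-NOT subunit, at -0.83 and -0.29, and of Pan2, a deadenylase, at -0.67 and -0.38, were lower in both. The Tnrc6b values of 2.74 and 1.83 lay near those of Ago2, at 2.86 and 1.69.

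Of 10 decapping and P-body genes, 5 were called higher and 4 lower in experiment 1, where 28.1% and 28.8% of all genes were, and 4 higher and 0 lower in experiment 2, where 18.9% and 8.77% were. The mRNA of the decapping enzyme Dcp2 had an enrichment of 2.98 (SE 0.18, adjusted p 7.06e-13) and 2.47 (SE 0.14, adjusted p 2.85e-13), and that of its cofactor Dcp1b 3.02 and 2.25. Against the same shares of all genes, of 6 microRNA biogenesis genes 3 were called higher and 2 lower in experiment 1, and 0 higher and 1 lower, Dgcr8 at -0.32 (SE 0.10, adjusted p 0.0178), in experiment 2. Dicer1, which encodes the enzyme that cuts microRNA precursors, had 0.61 (SE 0.14, adjusted p 0.000475) in experiment 1.

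**Figure D4:**
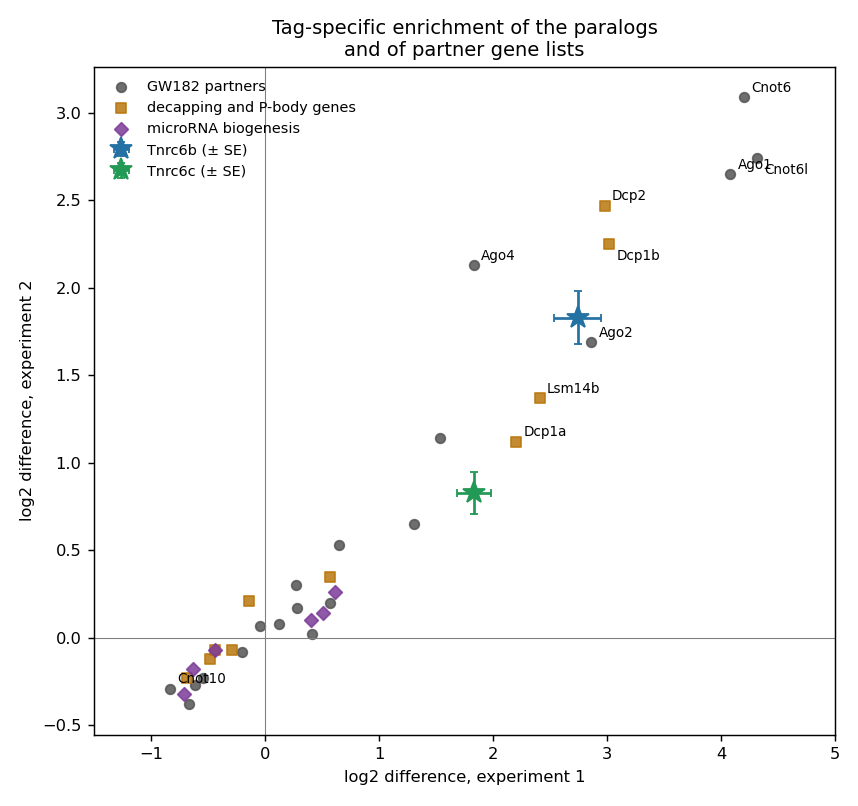
Tag-specific enrichment in experiment 1 (x axis) and experiment 2 (y axis), in log2 units, for the mRNAs of the paralogs (stars, with SE) and of 3 gene lists (symbols as in the legend). Tnrc6b at 2.74 and 1.83 and Tnrc6c at 1.83 and 0.83 lie among the enriched partner mRNAs, below Cnot6 and Cnot6l and above most of the listed genes.

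In the Trim71KO comparison of experiment 1, 3 of the 19 partner genes were lower and 0 higher, where 3.47% and 0.272% of all genes were. They were the Argonaute mRNAs Ago3, with a fold of 0.501 (SE 0.21 on the log2 scale, adjusted p 0.00458), and Ago1 at -0.95 (SE 0.19, adjusted p 0.00338), and the deadenylase mRNA Cnot6 at -0.55 (SE 0.15, adjusted p 0.0328). Cnot6 was named after its value was seen. In experiment 2 edgeR called 0 of 19, where 1.49% of all genes were called, and 6 had an unadjusted p under 0.05. In Ago2KO cells 6 of 19 were lower and 0 higher, where 3.77% of genes were called lower, with Ago2 itself at -0.97 (SE 0.14, adjusted p 5.44e-05) and Cnot6 at -0.79 (SE 0.15, adjusted p 0.00162). Of the 10 decapping genes 1, 1 and 2 were called, all lower, where 3.47%, 0.738% and 3.77% of all genes were called lower. Dcp2 was lower in each comparison, at -0.76 (SE 0.17, adjusted p 0.0102) and -0.58 (SE 0.14, adjusted p 0.0338) in Trim71KO and -1.11 (SE 0.14, adjusted p 1.04e-05) in Ago2KO cells, and Lsm14b, an RNA-granule protein gene, was lower in Ago2KO cells (-0.56, SE 0.12, adjusted p 0.00367). The comparisons of experiment 2 share the tagged libraries of experiment 2. Of the 6 biogenesis genes edgeR called 0 in these comparisons, where 3.74%, 1.49% and 4.16% of all genes were called. An unadjusted p under 0.05 was reached by 0, 2 and 1 in the Trim71KO comparisons of experiments 1 and 2 and the Ago2KO comparison. How many of all genes had an unadjusted p under 0.05 was not counted.

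Genes with the most similar pattern were sought by Pearson correlation of the mean log2 CPM over the 14 groups, each experiment centred on its own mean. The search covered 12625 genes with a mean log2 CPM of at least 2 over all libraries of each experiment. The points share libraries, and the values are descriptions with no test. For Tnrc6a the closest was ENSMUSG00000110230 (r = 0.999), a row of 446 bases without a symbol, followed by ENSMUSG00000116618 (r = 0.996) and Tagap1 (r = 0.995). The row ENSMUSG00000110230 held 1384 to 4170 counts in the IP libraries of tagged lines and 2 to 34 in all other libraries. Its counts were 0.534% to 0.918% of those of Tnrc6a in the IP libraries of tagged lines and 0.201% to 1.28% in all others. Its enrichment of 8.03 (SE 0.76) and 8.09 (SE 1.06) lay next to that of Tnrc6a, and rests on few counts outside the IP of tagged lines. In experiment 2 it was the 1 gene above Tnrc6a. Whether it shares reads with Tnrc6a is not known from the deposited tables.

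For Tnrc6b the closest were Zbtb11os1 (r = 0.990), Tet3 (r = 0.988), which encodes a DNA demethylase, and Ankib1 (r = 0.987). For Tnrc6c they were Arhgef12 (r = 0.990), Klc1 (r = 0.987), a kinesin light chain gene, and Polq (r = 0.987), a DNA polymerase gene. Among the members r was 0.970 between Tnrc6b and Tnrc6c, 0.943 between Tnrc6a and Tnrc6b and 0.930 between Tnrc6a and Tnrc6c. Each of these lay below the r of the members with the genes outside the family named above. How many other genes reach such values was not counted.

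The genes next to the members did not share their enrichment. Slc5a11 follows Tnrc6a after a gap of 19297 bases and had a tag-specific enrichment of -0.08 (SE 0.21, adjusted p 0.753) and -0.64 (SE 0.25, adjusted p 0.0557). Adsl follows Tnrc6b after 7403 bases and had 0.20 (SE 0.12) and 0.17 (SE 0.07), neither called, and Fam83f, 10887 bases before Tnrc6b, had 0.05 (SE 0.52) and -0.09 (SE 0.41). Tmc6, 2545 bases past the end of Tnrc6c, was lower in experiment 1, at -0.81 (SE 0.17, adjusted p 0.00026), and had -0.29 (SE 0.12, adjusted p 0.0641) in experiment 2.

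Mir5113, the microRNA gene inside Tnrc6b printed above, was the exception in experiment 1. Its row held 37, 35 and 24 counts in tagged IP libraries of experiment 1, 12, 3 and 3 in tagged inputs, 2, 1 and 1 in untagged IP and 9, 6 and 5 in untagged inputs. Its enrichment was 4.33 (SE 0.86, adjusted p 0.000143). In experiment 2 the row held 21, 23 and 20 counts in tagged IP, 3, 3 and 15 in tagged input and 1, 6 and 4 in untagged IP libraries, and the enrichment of 1.99 (SE 0.87, adjusted p 0.0912) was not called. The row covers 82 bases, the length of the hairpin gene and not of the mature microRNA, and how reads of Tnrc6b were assigned there is not given in the sources used here.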

How the data were processed

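Input and anti-HA bead-bound RNA was sequenced with a stranded total RNA kit, per the labels' protocols. The authors deposited 1 table per experiment with raw read counts per gene, RPKM and a gene length (QuasR, per the file headers). STAR 2.7.3a, bcl2fastq 2.20 and the builds GRCm38 and mm10 are named in the submitters' processing notes, and how overlapping genes and strand were counted is not given in the sources used here. The deposited RPKM were used only to check the family shares. The count test was that of edgeR 4.0.16 (R 4.3.3, TMM, filterByExpr, quasi-likelihood F test, 1 mean per group), with all groups of an experiment in 1 fit and 18772 and 19778 genes tested. P-values were adjusted by Benjamini-Hochberg over all genes, and called means an adjusted p under 0.05. Standard errors (SE) are the log2 difference divided by the square root of F, and counting intervals ignore duplicate molecules. CPM use the TMM-adjusted library size. Loci and the microRNA sequence come from RefSeq on GRCm38.p6, where 3 of 3 members matched. The script was tested on simulated data. Replicates differed beyond sampling noise in all 42 pairs (chi-square per gene 2.87 to 64.1). Other settings were RLE factors, library size alone, no filter, the compared groups alone, replicate blocks, DESeq2 1.42.0 and each library left out. The members and gene lists were chosen with earlier results of these data known. Named genes are the members, Trim71 and Ago2, up to 2 called genes each way per list and comparison with the largest difference, the 3 genes most like each member, and overlapping or neighbouring genes. Genes without a row in the tables were not analysed here.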

Additional observations from a re-analysis of the deposited data

Results flagged for a closer look

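Of the values above, 2 differed between the experiments by a test of the difference itself in the joint edgeR fit. Both were tag-specific enrichments, for which 28.5% of all genes were called in that fit. The tag-specific enrichment of Tnrc6b was higher in experiment 1 than in experiment 2 by 1.02 on the log2 scale, with 2.74 against 1.83 in the separate fits. That of Tnrc6c was higher by 1.10, with 1.83 against 0.83. Both differences were called with TMM, with RLE factors (0.99 and 1.07) and with library size alone (1.16 and 1.25). The input levels in tagged against untagged cells did not pass the same test (-0.23 for Tnrc6b, adjusted p 0.577, and -0.33 for Tnrc6c, adjusted p 0.212).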

How the results depend on the processing

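The tag-specific enrichment of all 3 members and the Trim71KO difference of Tnrc6b in experiment 1 kept their direction and call under every alternative run. In experiment 1 the Trim71KO enrichment of Tnrc6a lost its call with RLE factors (-0.84), library size alone (-0.74) and the compared groups alone (-0.88), and the tagged minus untagged input of Tnrc6c with the compared groups alone (-0.38). In experiment 2 calls appeared with the compared groups alone for the Trim71KO inputs of Tnrc6a (0.37) and Tnrc6b (0.23) and the Ago2KO inputs of Tnrc6a (0.40), Tnrc6b (0.31) and Tnrc6c (0.16), and with DESeq2 for the Ago2KO input of Tnrc6b (0.32) and the Tnrc6b enrichment in Trim71KO (-0.52) and Ago2KO cells (-0.46). The compared groups alone called 5775 genes for the Trim71KO input and 2481 for the Ago2KO input, against 5383 and 1376 with all groups. DESeq2 called 1536 genes for the Ago2KO input and 541 and 980 for the Trim71KO and Ago2KO enrichment, against 1376, 295 and 822. With library size alone the sign turned for the Trim71KO input of Tnrc6c in experiment 2 (-0.03) and for its IP level in Trim71KO against tagged cells of experiment 1 (0.09) and against Ago2KO cells (-0.02), none of them called. The cause was not tested.

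Leaving out each library in turn gave the ranges below. In experiment 1 the tagged minus untagged input ran from -0.52 to -0.20 for Tnrc6a, -0.46 to -0.16 for Tnrc6b and -0.44 to -0.23 for Tnrc6c. The Trim71KO minus tagged values of Tnrc6a ran from -0.96 to -0.62 (enrichment) and 0.30 to 0.63 (input), and the IP levels from -0.49 to -0.16 for Tnrc6a and -0.13 to 0.07 for Tnrc6c. In experiment 2 the Trim71KO enrichment ran from -0.62 to -0.39 for Tnrc6b and -0.03 to 0.18 for Tnrc6c, the Trim71KO input of Tnrc6b from 0.11 to 0.32 and the IP levels from -0.25 to 0.24 for Tnrc6a, -0.36 to -0.15 for Tnrc6b and 0.01 to 0.22 for Tnrc6c. The ratio of Tnrc6b in untagged cells of experiment 2 ran from -0.52 to -0.31. The Ago2KO enrichment ran from -0.58 to 0.07 for Tnrc6a and -0.53 to -0.33 for Tnrc6b, and the IP level from -0.18 to 0.46 for Tnrc6a and -0.07 to 0.14 for Tnrc6c. Between the knockouts, Tnrc6a ran from -0.42 to 0.19 (enrichment), -0.05 to 0.01 (input) and -0.43 to 0.15 (IP), Tnrc6b from -0.17 to 0.06 (enrichment) and -0.21 to 0.01 (input), and Tnrc6c from -0.01 to 0.13 (IP).

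Libraries of the same number were not treated as pairs: their deviations correlated between -0.16 and 0.35, and 0 of 25 group pairs had every correlation over 0.1. As a hint from the data, 78 of 150 samples correlated best with their own number, among them 3 of 3 both ways for tagged with Trim71KO libraries (input and IP) in experiment 2. With a replicate block within genotype, Tnrc6b enrichment was -0.50 (adjusted p 0.0134) in Trim71KO and -0.44 (adjusted p 0.0114) in Ago2KO cells of experiment 2, and calls over all genes went from 295 to 522 and from 822 to 1014. With a replicate block within input and within IP, the inputs of Tnrc6a in Trim71KO (0.37) and Ago2KO (0.41) and of Tnrc6b in Ago2KO cells (0.32) of experiment 2 were called, as was the IP level of Tnrc6a in Trim71KO against tagged cells of experiment 1 (-0.39, adjusted p 0.0383). Either block also called Tnrc6b lower on the beads in untagged cells of experiment 2 (-0.43).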
